A study of Mus musculus with 12 samples.

Results

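Id1, Id2, Id3, Id4, Atoh8, Smad6, Smad9 and Bambi, the 4 Id genes and 4 further genes known as targets of BMP-SMAD signaling, were followed across the 12 libraries of C22 mouse club cells. They are 8 of the 23282 gene rows in the count files. They were picked by symbol, with the low values of several of them after TGF-β1 in control cells already known, so those values are given below as a description without a test. All 8 have a row and 7 of them were among the 12425 genes with enough counts to be tested. Id4 had too few counts. Smad9 passed this filter through the untreated libraries, since 6 untreated and 0 treated libraries lay above its cutoff of 0.754 CPM (counts scaled to library size), and Bambi did so in 3 untreated libraries and 1 treated library.

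C22 is a conditionally immortalized mouse club cell line, grown as a clone from mice that carry the H-2Kb-tsA58 transgene. All cells were differentiated, deprived of serum and assayed by QuantSeq, which counts reads from the 3′ ends of transcripts. The 4 groups of 3 libraries were the negative control (NC), NC given 20 ng/ml TGF-β1 for 24 h, cells in which Pdcd5 was knocked down by siRNA (siPdcd5), and siPdcd5 cells given the same TGF-β1 treatment, to ask how PDCD5 affects the transcription of TGF-β target genes. No label says that the 3 libraries of a group came from separate cultures, so the p-values measure only the spread between these libraries.

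ID proteins are helix-loop-helix proteins without a DNA-binding region. They pair with E proteins and keep them, and the tissue factors that need E proteins as partners, off DNA. BMP ligands bind receptor pairs that phosphorylate Smad1, Smad5 and Smad9, which join Smad4 and bind GC-rich elements near genes such as the Id genes, whereas TGF-β acts mainly through Smad2 and Smad3. In epithelial cells ID proteins are known for holding back differentiation and E-protein-driven loss of epithelial character.

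The libraries held 12809857 to 17714828 counts, so that 3 counts, taken as the floor of detection, were 0.169 to 0.234 CPM. CPM values are scaled by TMM factors throughout. Pdcd5 was at 65.1 to 73.5 CPM in NC, 66.3 to 69.7 CPM in NC + TGF-β1, 20.0 to 22.1 CPM in siPdcd5 and 21.8 to 26.3 CPM in siPdcd5 + TGF-β1. These values matched the knockdown labels, while Pdcd5 did not separate treated from untreated libraries. Of the 8 club cell markers listed, 3 (Scgb3a2, Cyp2f2 and Foxa1) had 0 counts in all libraries and Scgb1a1, the main secretory protein of club cells, had at most 1 count in any library. Only Foxa2, a lung epithelial transcription factor, was tested from that list. The epithelial adhesion gene Epcam also had at most 1 count, so the label of club cell rests on the origin of the line and not on these transcripts.

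The mouse promoter windows of RefSeq (GRCm38.p6, 250 bases before to 50 after the start of the gene, 300 in all) were available for 6 of the 8 genes and are shown because most of these genes were low together after TGF-β1. Each was searched on both strands for GGCGCC and GGAGCC, GC-rich elements known to bind the BMP SMADs, for CAGAC, the SMAD box, and for the SMAD palindrome GTCTAGAC. GGCGCC was present in 3 of the 6 windows against 11.9% of all 32851 windows, and GGAGCC in 5 of the 6 against 30.8%. CAGAC was present in 1 of the 6 against 49.6% and GTCTAGAC in 1 of the 6 against 0.213%. The genes were picked as known BMP-SMAD targets, and the windows they are set against were not matched for GC content, so nothing is read from these shares. Id2 had GGCGCC at position -231 and GGAGCC at -88 from the start. Id3 had GGAGCC on the reverse strand at -187 and CAGAC at -167 and, on the reverse strand, at -68. Id4 had GGCGCC at -148 and GGAGCC at -13, and Smad9 had GGCGCC at -51 and GGAGCC at -6 on the reverse strand and at 19. Smad6 had GGAGCC at -102 and -18 and GTCTAGAC at -4, and no match was found in the window of Atoh8. These are matches of letters in one window and not measured binding sites. The stretches around the matches of Id2 (minus strand, chr12:25096306-25096335 and chr12:25096163-25096192) and Id3 (plus strand, chr4:136143623-136143652, chr4:136143643-136143672 and chr4:136143742-136143771), which lie inside the annotated spans of those genes, and the window of Smad6 from 250 bases before to 4 bases after its start (minus strand, chr9:64022056-64022309) read as follows, 5′ to 3′, with the matches in capitals.
Id2, GGCGCC: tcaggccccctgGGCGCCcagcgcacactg
Id2, GGAGCC: gtatgatggacgGGAGCCcttccaccaatg
Id3, GGAGCC on the reverse strand: cctcgcatccgaGGCTCCgctgtcctcggc
Id3, CAGAC: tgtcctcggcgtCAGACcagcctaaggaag
Id3, CAGAC on the reverse strand: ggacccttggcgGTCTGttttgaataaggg
Smad6, 2 GGAGCC and GTCTAGAC: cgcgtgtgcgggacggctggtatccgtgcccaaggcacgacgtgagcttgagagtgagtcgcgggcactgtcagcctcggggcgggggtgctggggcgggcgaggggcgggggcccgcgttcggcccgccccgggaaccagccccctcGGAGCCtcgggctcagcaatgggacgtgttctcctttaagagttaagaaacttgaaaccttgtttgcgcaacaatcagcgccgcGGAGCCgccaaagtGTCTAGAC

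Id1 (chr2:152736251-152737410, GRCm38, plus strand) was at 112, 114 and 133 CPM in NC and at 30.8, 26.9 and 22.7 CPM in NC + TGF-β1. In siPdcd5 cells it was at 81.0, 89.5 and 84.2 CPM without and at 25.3, 26.8 and 23.4 CPM with TGF-β1. All 6 treated libraries lay below all 6 untreated ones, and the siPdcd5 libraries without TGF-β1 lay below the NC libraries. These are bulk cultures, in which fewer expressing cells and less RNA per cell cannot be told apart.

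Id2 (chr12:25093799-25097140, minus strand) was at 137, 124 and 133 CPM in NC and at 6.45, 9.19 and 6.07 CPM in NC + TGF-β1. It was at 79.3, 68.0 and 82.2 CPM in siPdcd5 and at 10.6, 10.3 and 7.13 CPM in siPdcd5 + TGF-β1. The treated and untreated libraries were far apart in both backgrounds, the untreated siPdcd5 libraries lay below the untreated NC libraries, and the treated libraries of the 2 backgrounds overlapped.

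Id3 (chr4:136143497-136145755, plus strand) was at 237, 256 and 251 CPM in NC and at 24.8, 43.1 and 25.8 CPM in NC + TGF-β1. In siPdcd5 cells it was at 264, 172 and 181 CPM without and at 33.5, 25.8 and 30.9 CPM with TGF-β1. Treated libraries were again below all untreated ones. The first siPdcd5 library was the highest of all 12 and the other two siPdcd5 libraries were below the NC libraries, so that NC and siPdcd5 overlapped.

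Id4 (chr13:48261228-48266026, plus strand) had 0, 1 and 0 counts in NC, 0, 3 and 0 in NC + TGF-β1, 3, 3 and 1 in siPdcd5 and 1, 0 and 0 in siPdcd5 + TGF-β1. No library was above the floor of 3 counts, so no difference between groups was detectable at this depth. The gene overlaps the antisense genes A330033J07Rik and Gm49291.

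**Figure D1:**
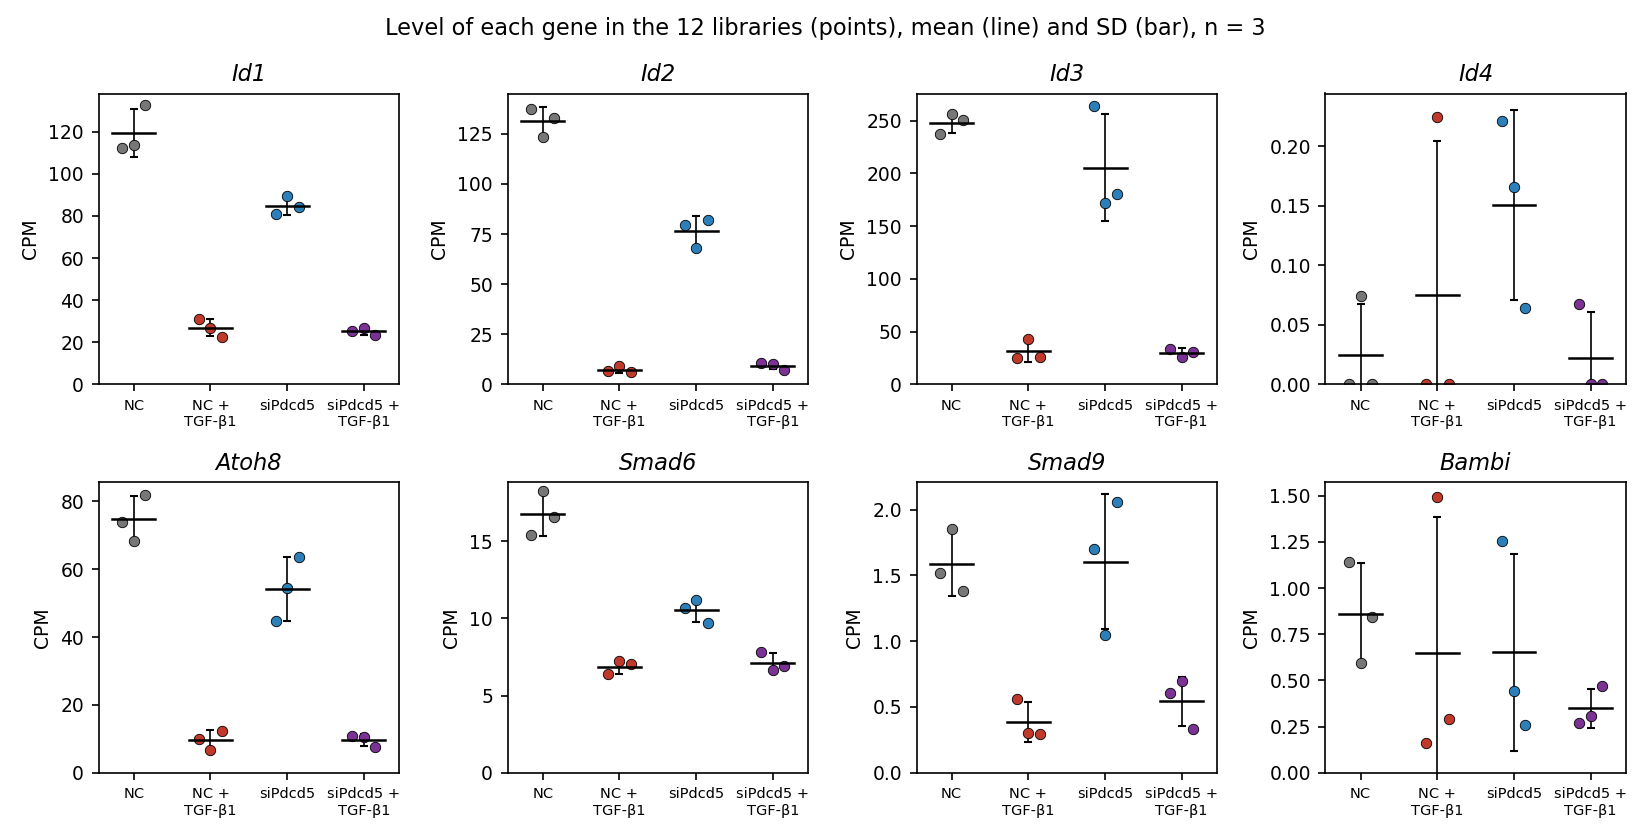
Levels of the 8 genes in the 12 libraries, in TMM-scaled CPM on axes that start at 0, by group (NC, NC + TGF-β1, siPdcd5, siPdcd5 + TGF-β1). Points are libraries, lines group means and bars the SD of 3 libraries. The treated points of Id1, Id2, Id3, Atoh8, Smad6 and Smad9 lie below all untreated points, whereas those of Bambi overlap them and Id4 stays at 0 to 3 counts.

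Atoh8 (chr6:72206177-72235577, minus strand), a basic helix-loop-helix transcription factor, was at 73.8, 68.3 and 81.9 CPM in NC and at 10.03, 6.58 and 12.3 CPM in NC + TGF-β1. It was at 44.7, 54.3 and 63.5 CPM in siPdcd5 and at 10.8, 10.6 and 7.60 CPM in siPdcd5 + TGF-β1. Its pattern was that of Id1, with treated below untreated libraries and untreated siPdcd5 below untreated NC libraries, and with treated libraries that overlapped.

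Smad6 (chr9:63953076-64022059, minus strand), an inhibitory SMAD that blocks BMP receptor signaling, was at 15.4, 18.2 and 16.6 CPM in NC and at 6.37, 7.25 and 7.02 CPM in NC + TGF-β1. It was at 10.7, 11.2 and 9.72 CPM in siPdcd5 and at 7.85, 6.63 and 6.92 CPM in siPdcd5 + TGF-β1. Untreated siPdcd5 libraries again lay below untreated NC libraries, and the nearest treated and untreated siPdcd5 libraries were at 7.85 and 9.72 CPM.

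Smad9 (chr3:54755582-54801257, plus strand), a receptor-activated SMAD of the BMP branch, had 20, 25 and 18 counts in NC, 7, 4 and 4 in NC + TGF-β1, 23, 19 and 32 in siPdcd5 and 9, 9 and 5 in siPdcd5 + TGF-β1. Bambi, a decoy receptor that lacks a kinase domain, had 15, 8 and 11 counts in NC, 2, 20 and 4 in NC + TGF-β1, 17, 8 and 4 in siPdcd5 and 4, 4 and 7 in siPdcd5 + TGF-β1. Smad9 separated treated from untreated libraries despite few counts, while Bambi did not, and its highest library was the second of the NC + TGF-β1 group. The pseudogene Bambi-ps1 had up to 11 counts in a library and reads with several alignments were counted, so the counts of Bambi are uncertain.

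In NC cells, levels after TGF-β1 as a share of those before ran from 5.52% for Id2 to 41.1% for Smad6 among the 6 genes whose groups did not overlap. Genes lower in every treated than in every untreated NC library made up 14.3% of those tested, and those called lower at an adjusted p under 0.05 made up 6.77% and those called higher 8.57%. Nothing is read from these shares here, since the NC response was known when the genes were picked. Fitted log2 fold changes (edgeR, with their SE) were -4.18 (0.17) for Id2, -2.99 (0.21) for Id3 and -2.95 (0.20) for Atoh8. These 3 genes ranked 3, 12 and 15 from the lowest of the 12425 genes. Id1 stood at -2.16 (0.12), Smad9 at -2.04 (0.44) and Smad6 at -1.28 (0.14), ranked 42, 56 and 202. Bambi stood at -0.39 (0.70), with overlapping groups. The median of the 7 genes, with Smad9 and Bambi, was -2.16, against 0.005 over all genes tested. That of the 5 genes without Smad9 and Bambi was -2.95. Bambi depended on single libraries, at 0.05 without the first, -1.87 without the second and -0.02 without the third NC + TGF-β1 library. Id3 was at -3.29 without the second NC + TGF-β1 library.

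The libraries of siPdcd5 cells are not those of the NC comparison. In them Id1, Id2, Id3, Atoh8 and Smad6 fell after TGF-β1 (edgeR quasi-likelihood test, Benjamini-Hochberg adjustment over all 12425 genes). Each of these genes lay above the filter cutoff of 0.754 CPM in all 6 treated and all 6 untreated libraries. Of all genes tested, 7.61% were called lower and 8.5% higher. Id2 fell by 3.03 on the log2 scale (SE 0.17, adjusted p = 2.4e-08), to 12.2% of its untreated level. Id3 fell by 2.77 (SE 0.21, adjusted p = 4.4e-07), Atoh8 fell by 2.49 (SE 0.20, adjusted p = 8.8e-07) and Id1 fell by 1.75 (SE 0.12, adjusted p = 1.6e-07). They kept 14.7%, 17.8% and 29.6% of their untreated levels, and all 4 were called under each of the 19 alternative settings.

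Smad6 fell by 0.56 (SE 0.14, adjusted p = 0.0118), to 67.8%, and the call was lost without the second siPdcd5 + TGF-β1 library (adjusted p = 0.0549). Id1, Id2, Id3, Atoh8 and Smad6 were lower in every treated than in every untreated siPdcd5 library, as were 18.1% of all genes tested, while Bambi overlapped. The median of the 7 genes, with Smad9 and Bambi, was -1.75 against -0.03 over all genes. Without Smad9 and Bambi, whose place in the filter came mainly from untreated libraries, the median of the other 5 was -2.49. Smad9 stood at -1.54 (SE 0.40), or 34.4% of its untreated level, which is given without a test because the gene passed the filter through its untreated libraries alone. Bambi stood at -0.83 (SE 0.78, adjusted p = 0.527), and between -1.20 and -0.0087 over the alternatives.

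**Figure D2:**
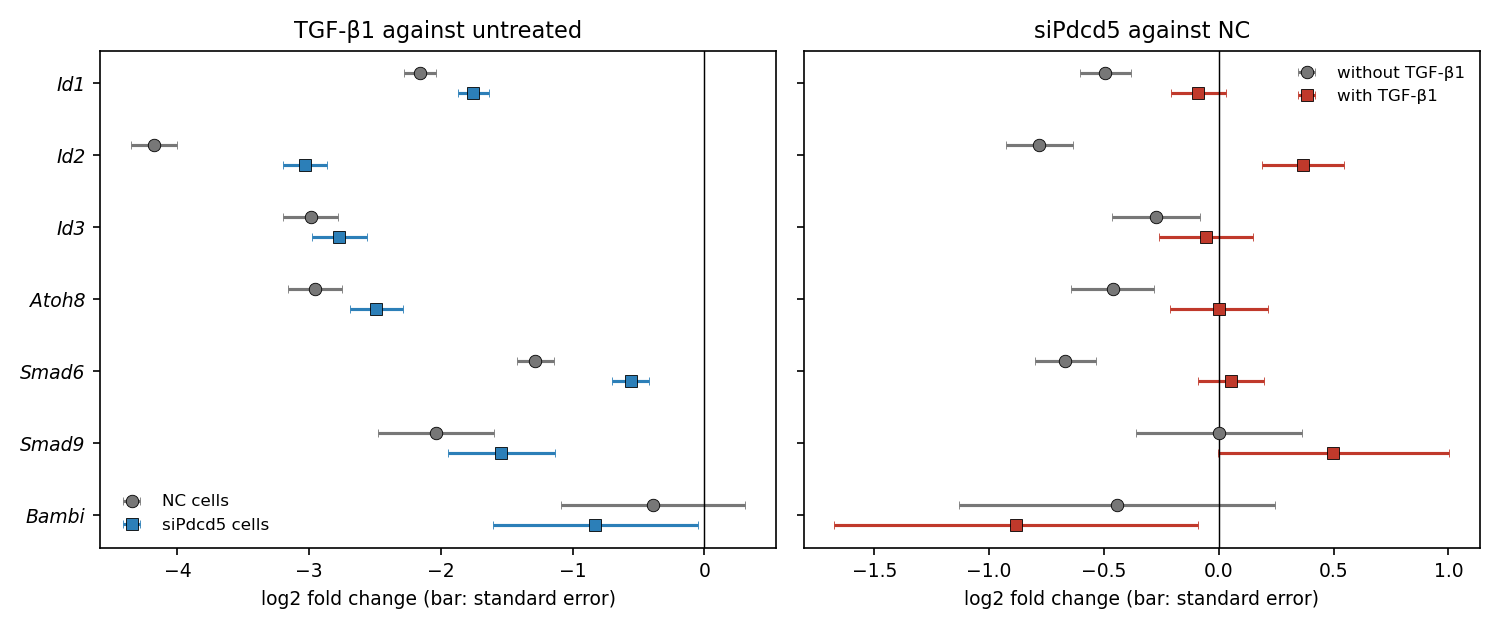
Log2 fold changes of the 7 tested genes with their SE, after TGF-β1 against untreated in NC and siPdcd5 cells (left) and for siPdcd5 against NC without and with TGF-β1 (right). Left, the lowest value is -4.18 for Id2 in NC cells, and right, the values with TGF-β1 lie between -0.88 for Bambi and 0.50 for Smad9.

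The share of reads within the Id1, Id2 and Id3 total shifted with treatment. Id2 made up 25.0 to 28.3% of that total in NC and 10.4 to 11.6% in NC + TGF-β1, while Id1 went from 23.0 to 25.7% to 34.0 to 49.6%. In siPdcd5 cells the share of Id2 was 18.7 to 23.7% without and 11.6 to 16.4% with TGF-β1. The ranges with and without TGF-β1 did not overlap for either gene in either background, and the share of Id1 in siPdcd5 cells was 19.1 to 27.1% without and 36.5 to 42.6% with TGF-β1. These shares are a description, as they restate the fold changes above.

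For knockdown of Pdcd5 without TGF-β1, edgeR called Id2, Smad6 and Id1 lower, 3 of the 7 genes, and 0 higher. Of all genes tested, 2.54% were called lower and 0.901% higher. The untreated NC libraries were also part of the response known when the genes were picked, which can favour differences below 0 here. The p-values and calls of these genes share that limit and are a description. Id2 fell by 0.78 on the log2 scale (SE 0.14, edgeR adjusted p = 0.00777), to 58.2% of the NC level, and was called under all 19 alternatives, at adjusted p of up to 0.0448. Smad6 fell by 0.67 (SE 0.13, adjusted p = 0.0122), to 62.9%, a call lost without the second NC library (adjusted p = 0.0743) or the third siPdcd5 library (adjusted p = 0.0650). Id1 fell by 0.49 (SE 0.11, adjusted p = 0.0259), to 71.0%. The call of Id1 held under 13 of 19 alternatives and was lost with the replicate number as a block (-0.50, adjusted p = 0.0569) and without any 1 of the 3 NC libraries or without siPdcd5 library 1 or 3, at adjusted p of 0.0545 to 0.132.

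Atoh8 stood at -0.46 after knockdown (SE 0.18, adjusted p = 0.221, 95% interval -0.85 to -0.07), with no overlap between NC and siPdcd5 libraries. In all, 4 of the 7 genes were lower in every siPdcd5 than in every NC library, as were 12.5% of all genes tested. Id3 stood at -0.27 (SE 0.19, adjusted p = 0.548), Smad9 at 0.002 (SE 0.36, adjusted p = 0.998) and Bambi at -0.44 (SE 0.69, adjusted p = 0.826), and these 3 overlapped. Without the first siPdcd5 library Id3 was at -0.50 and Bambi at -1.26, while without library 2 or 3 of that group Id3 was at -0.16 and -0.20 and Bambi at -0.22 and -0.079. The median of the 7 was -0.46, against 0.02 over all genes. As this comparison shares the untreated NC libraries with the one known when the genes were picked, the calls, the count of lower genes and the median are a description.

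With TGF-β1 present, knockdown changed 0 of the 7 genes by edgeR at an adjusted p under 0.05, where 1.22% of all genes tested were called lower and 0.33% higher, and DESeq2 also called 0. At an unadjusted p under 0.05 the count was 0 as well. The 95% intervals of the difference were -0.35 to 0.17 for Id1, -0.49 to 0.38 for Id3, -0.46 to 0.46 for Atoh8 and -0.25 to 0.36 for Smad6, and they show how large a difference these libraries could have missed. Id2 stood at 0.37 (SE 0.18, adjusted p = 0.390, 95% interval -0.02 to 0.75). The low counts of Smad9 and Bambi left wide intervals, -0.58 to 1.58 and -2.58 to 0.81. This comparison uses the NC + TGF-β1 libraries, whose low values were known when the genes were picked. All 7 genes overlapped between the treated groups, and their median was 0.001 against -0.02 over all genes.

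The response to TGF-β1 in siPdcd5 cells was set against that in NC cells as a difference, siPdcd5 minus NC. The genes were picked with low values in the NC response known, which can favour differences above 0, so nothing is read from their sign. The intervals, p-values and calls of the 7 genes below share that limit and are a description. Id2 showed 1.15 on the log2 scale (SE 0.23, 95% interval 0.65 to 1.64), from a fall to 5.52% in NC cells and to 12.2% in siPdcd5 cells. Smad6 showed 0.72 (95% interval 0.30 to 1.14) and Id1 showed 0.40 (95% interval 0.05 to 0.76). The intervals of Atoh8 (-0.14 to 1.06), Smad9 (-0.82 to 1.81), Id3 (-0.38 to 0.82) and Bambi (-2.68 to 1.80) included 0. After adjustment over all genes edgeR called none of the 7 (adjusted p = 0.407 for Id2, 0.736 for Smad6 and 0.951 for Id1) and 0% of the genes tested, with 638 genes, 5.13%, at an unadjusted p under 0.05. Id2, Smad6 and Id1 were among those 638, at unadjusted p = 1.96e-04, 0.00238 and 0.0270. DESeq2 called 15 genes, Id2 among them (adjusted p = 0.00374), and edgeR called Id2 without the second NC + TGF-β1 library (1.36, adjusted p = 0.0345). Over the alternatives the adjusted p of Id2 ran from 0.00374 to 1.

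**Figure D3:**
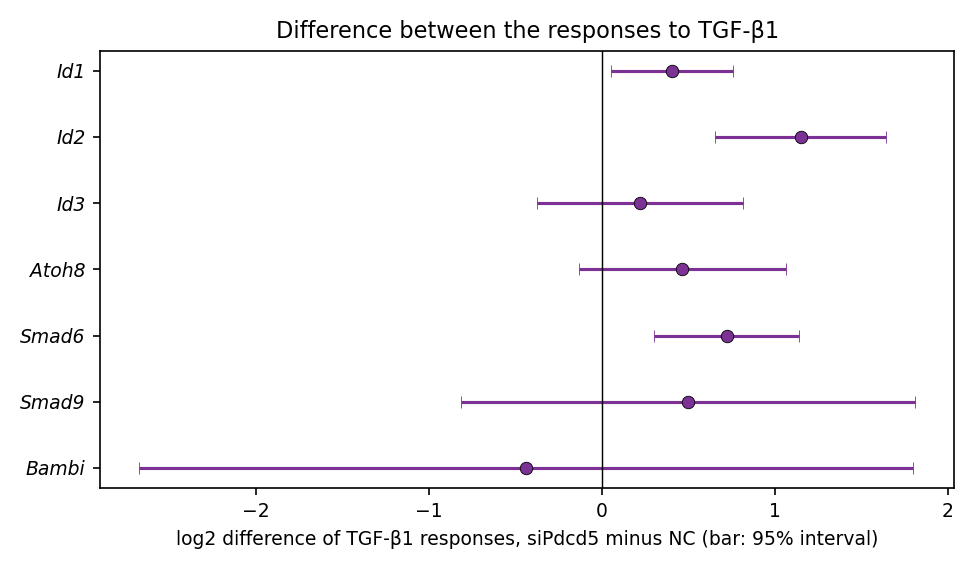
Log2 response to TGF-β1 in siPdcd5 cells minus that in NC cells for the 7 tested genes, with 95% intervals. Id2 is highest at 1.15, and after adjustment over all genes edgeR called 0 of the 7, whose low NC values were known when they were picked.

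The ligands, receptors and regulators around these genes did not move as a block. Of 12 BMP ligands listed, 2 had enough counts to be tested. Bmp4 was at 504 to 540 CPM in NC, 160 to 244 CPM in NC + TGF-β1, 269 to 377 CPM in siPdcd5 and 137 to 169 CPM in siPdcd5 + TGF-β1. It fell after TGF-β1 in NC cells (log2 -1.38, SE 0.15, edgeR adjusted p = 1.5e-05) and in siPdcd5 cells (-1.07, SE 0.15, adjusted p = 1.8e-04). Knockdown without TGF-β1 also lowered it (-0.65, SE 0.15, adjusted p = 0.0294), a call that held under 14 of 19 alternatives and was lost without any of the NC libraries or siPdcd5 library 1 or 3 (adjusted p of 0.0758 to 0.122). Bmp8a rose after TGF-β1 from 1.38 to 3.35 CPM in NC to 4.34 to 7.09 CPM (1.34, SE 0.31, adjusted p = 0.00713). In siPdcd5 cells it rose by 1.16 (SE 0.32, adjusted p = 0.0233), with the call lost without the first or second library of either siPdcd5 group, at adjusted p of 0.0572 to 0.0822.

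Of 11 BMP receptors and co-receptors, 8 were tested. Bmpr2, the type II BMP receptor, rose after TGF-β1 in NC cells (0.68, SE 0.10, edgeR adjusted p = 1.7e-04) and in siPdcd5 cells (0.73, SE 0.10, adjusted p = 1.1e-04). Acvr1, a type I receptor, rose in NC cells (1.12, SE 0.29, adjusted p = 0.0157). That call was lost without NC library 1 or 3 (adjusted p = 0.0714 and 0.0555), and the value was 0.66, still called, without the second NC + TGF-β1 library. In siPdcd5 cells Acvr1 stood at 0.76 (adjusted p = 0.0939), and the difference between the backgrounds did not pass (adjusted p = 0.962). Of 13 secreted BMP antagonists, 6 were tested and Bmper rose in NC cells (0.62, SE 0.19, adjusted p = 0.0460). That call held under 7 of 19 alternatives.

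All 10 SMADs and SMAD regulators listed besides the members were tested, and after TGF-β1 5 rose and 0 fell in NC cells and 4 rose and 0 fell in siPdcd5 cells. Smad7, the inhibitory SMAD that acts on the TGF-β receptor, was at 13.7 to 15.9 CPM in NC, 20.8 to 24.1 CPM in NC + TGF-β1, 10.1 to 11.01 CPM in siPdcd5 and 24.0 to 27.2 CPM in siPdcd5 + TGF-β1. It rose by 0.64 (SE 0.11, edgeR adjusted p = 0.00118) in NC cells and by 1.26 (SE 0.12, adjusted p = 3.0e-06) in siPdcd5 cells, whereas Smad6 fell in siPdcd5 cells. Skil, a SMAD corepressor, rose by 1.40 and 1.70, and Smurf1, a ubiquitin ligase for SMADs, by 0.71 in both backgrounds. Ski, a related corepressor, rose by 0.32 in NC cells, a call that held under 14 of 19 alternatives, and by 0.50 in siPdcd5 cells. The adjusted p of Skil, Smurf1 and Ski was at most 0.0147. Smad5, a receptor-activated SMAD of the BMP branch, was the other gene that rose in NC cells (0.27, SE 0.08, edgeR adjusted p = 0.0382). In siPdcd5 cells Smad5 stood at 0.08 (adjusted p = 0.593). Knockdown without TGF-β1 lowered Smad7 (-0.45, SE 0.12, adjusted p = 0.0492), a call that held under 5 of 19 alternatives.

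**Figure D4:**
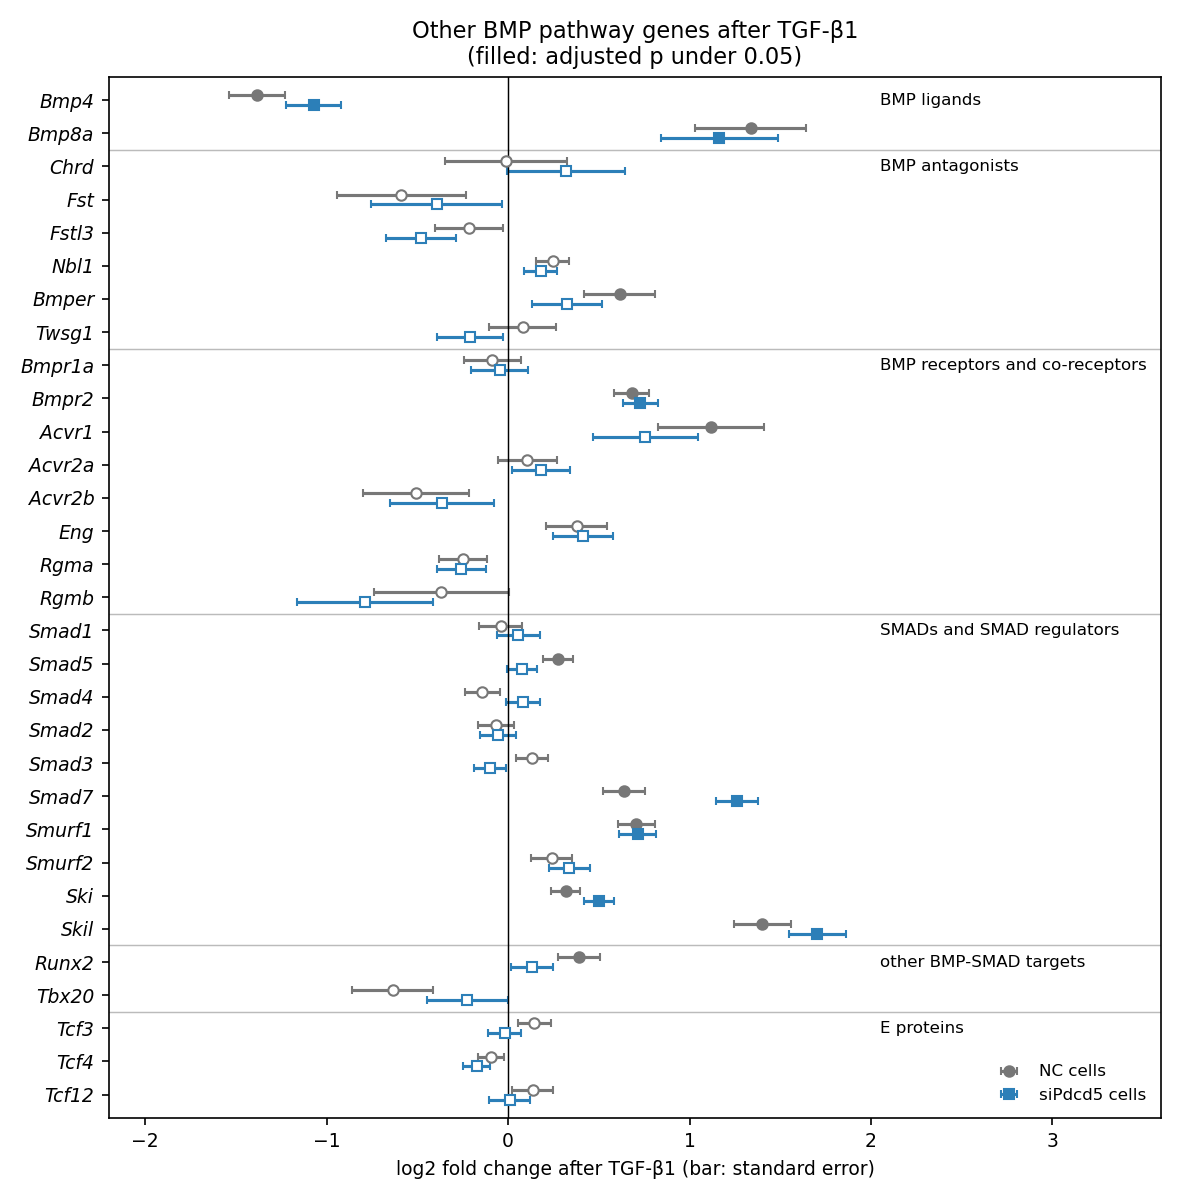
Log2 fold changes after TGF-β1, with their SE, of the tested genes of the other BMP pathway lists, by list, in NC and siPdcd5 cells. Filled symbols passed an adjusted p of 0.05. Bmp4 lies at -1.38 and -1.07 and Skil, the highest, at 1.40 and 1.70.

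Of 10 further genes known as BMP-SMAD targets in other tissues, 2 were tested and 2 had 0 counts in all libraries. Runx2, a bone transcription factor, rose in NC cells (0.39, SE 0.12, edgeR adjusted p = 0.0332), a call that held under 11 of 19 alternatives, and was at 0.24 without the third NC + TGF-β1 library (adjusted p = 0.126). Tbx20, the other gene tested, stood below 0 after TGF-β1 and was not called. Its values were -0.63 in NC cells (edgeR adjusted p = 0.0738) and -0.22 in siPdcd5 cells (adjusted p = 0.556). Of the 3 E protein genes, Tcf3, Tcf4 and Tcf12, edgeR called 0 in each of the 5 comparisons, with 1 value at an unadjusted p under 0.05, that of Tcf4 after TGF-β1 in siPdcd5 cells (-0.17), where DESeq2 also called 1. In NC cells their log2 fold changes after TGF-β1 were 0.15, -0.09 and 0.14. Of 7 TGF-β-SMAD targets, 6 were tested and all 6 rose after TGF-β1 in both backgrounds, Postn by 4.59 and 3.91 and Ctgf by 2.27 and 2.62.

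Markers of cell state moved with the treatment too, and their part in the values above was not tested. Foxa2 was at 161 to 183 CPM in NC, 49.1 to 52.2 CPM in NC + TGF-β1, 196 to 213 CPM in siPdcd5 and 66.5 to 76.6 CPM in siPdcd5 + TGF-β1. The summed level of 6 epithelial markers was 676 to 699 CPM in NC and 1242 to 1678 CPM in NC + TGF-β1, and 549 to 700 CPM in siPdcd5 and 1586 to 1647 CPM in siPdcd5 + TGF-β1. That of 3 basal cell markers was 10.2 to 11.98, 169 to 210, 1.92 to 4.51 and 75.2 to 88.0 CPM in the same order of groups. The sum of 5 fibroblast markers was 101 to 111, 46.8 to 59.1, 149 to 178 and 80.9 to 89.1 CPM. Single genes carried these sums, so they do not describe the lists as a whole. In the epithelial list Krt8 and Krt18 rose in NC cells by 1.36 and 1.05 on the log2 scale (edgeR adjusted p = 8.6e-07 and 6.2e-05), while Cdh1 stood at -0.58 (adjusted p = 0.167). The basal sum was almost all Krt14, which rose by 4.11 (adjusted p = 6.8e-09), as Krt5 and Trp63 had at most 3 counts in a library. In the fibroblast list Dcn fell by 2.08 (adjusted p = 6.5e-09) and Col1a2 rose by 2.78 (adjusted p = 6.1e-07). The sums of 5 alveolar type 2 markers, 4 endothelial and 4 immune markers stayed at or below 0.877, 2.47 and 12.03 CPM in all libraries, and that of 3 ciliated cell markers ran from 4.75 to 12.4 CPM.

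Over the 12 libraries, Pearson's r of log2 CPM was 0.986 between Id1 and Id2, 0.971 between Id1 and Id3 and 0.984 between Id2 and Id3. Atoh8 was at 0.948 to 0.977 with these 3 genes and Smad6 at 0.907 to 0.930, whereas Bambi was at 0.205 to 0.525 with the other 6. The 12 libraries fall into treated and untreated sets on this axis, and all genes share the same libraries and depth, so that r is a description of likeness.

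Among 9123 other genes whose log2 CPM averaged 3 or more, those with the highest r to the mean of Id1, Id2 and Id3 included Casp12 (0.988), Ccnd1 (0.985), Maoa (0.985) and Ppm1k (0.985). Mean levels of Ccnd1, which encodes cyclin D1, were 1253 CPM in NC, 522 CPM in NC + TGF-β1, 1021 CPM in siPdcd5 and 447 CPM in siPdcd5 + TGF-β1. The 5 with the lowest r were Nav1 (-0.992), Timp1 (-0.992), Tnnt2 (-0.991), Chsy1 (-0.990) and Pmepa1 (-0.990). Timp1, a metalloproteinase inhibitor, had mean levels of 99.7, 333, 119 and 312 CPM in the same order of groups, and Pmepa1, a TGF-β target that restrains SMAD signaling, had 212, 1398, 212 and 1353 CPM.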

How the data were processed

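RNA of C22 cells, 12 libraries with 3 per group, was sequenced by the authors with a QuantSeq 3′ kit, which counts transcript ends and not length. Per the labels and the study's methods, reads were aligned with Bowtie2 to mm10 and counted with Bedtools over unique and multiple alignments. The deposited values are whole-number counts per gene, not normalized. Counts over multiple alignments can split reads between near copies. The 8 members and the gene lists were chosen with earlier results of these data known. Counts were scaled by TMM factors and tested with edgeR 4.0.16 (R 4.3.3; quasi-likelihood, default filter, 1 model of 4 groups over all 12 libraries, Benjamini-Hochberg), which left 12425 of 23282 genes. The study's methods name quantile normalization, which a count test cannot take and which was an alternative. Other alternatives were upper-quartile factors, DESeq2 1.42.0, limma 3.58.1 on quantile-normalized values, no filter, a minimum of 10 counts in every library, the compared libraries alone, a replicate block and each library left out. The named genes were all 8 members, genes of other lists past an adjusted p of 0.05 (at most the 4 largest per list and comparison), Pdcd5, Postn and Ctgf, and the 5 genes most and least like Id1 to Id3. A gene under this rule is not reported here. E protein genes, Smad5, Tbx20, Cdh1, Krt5, Trp63, Scgb1a1, Scgb3a2, Cyp2f2, Foxa1 and Epcam were named after their values were seen, and marker and likeness genes carry no test of the members. The same alternatives were run for Foxa2 and, except for Smad5, the named BMP pathway genes that edgeR called, a step added after seeing the data. Gene positions are from GENCODE M21 and promoter windows from RefSeq. Scripts were tested on simulated data.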

Additional observations from a re-analysis of the deposited data

How the results depend on the processing

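Depth left Smad9 and Bambi at 2 to 32 counts and Id4 at 0 to 3 counts, and only differences of several fold could be seen there. Of the comparisons of single members, values near 0 changed sign. For Smad9, knockdown without TGF-β1 gave -0.048 with quantile normalization and limma, -0.0059 with DESeq2 and -0.0086 without a filter, and -0.24 to 0.25 with each library left out. For knockdown with TGF-β1, Atoh8 gave -0.00085 with DESeq2 and -0.0013 with at least 10 counts in every library, and with each library left out -0.21 to 0.22 for Atoh8, -0.20 to 0.022 for Id1, -0.19 to 0.25 for Id3, -0.018 to 0.10 for Smad6 and -1.32 to 0.60 for Bambi. The difference between responses of Bambi was 0.60 with quantile normalization and limma and -0.88 to 1.05 with each library left out. The cause was not tested.

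Genes called after knockdown without TGF-β1 numbered 427, 714 with DESeq2 and 175 to 673 with each library left out, and members called numbered 3 and then 1 to 3, with 1 without the second NC or the third siPdcd5 library. After knockdown with TGF-β1 they numbered 192, 459 with DESeq2, 43 with the compared libraries alone, 107 with the replicate block and 74 to 326 with each library left out. The difference between responses called 0 genes, 15 with DESeq2 and 0 to 2 with each library left out, and 0 members, 1 with DESeq2 and 0 to 1 with each library left out. A minimum of 10 counts in every library left no value for Smad9 and Bambi.

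After TGF-β1 in NC cells 1065 genes were higher and 841 lower, against 945 and 996 with upper-quartile factors, and in siPdcd5 cells 1056 and 946 against 939 and 1072. No setting moved the median of all genes by more than 0.0355. Libraries within a group were compared by a chi-square per degree of freedom over their counts, larger where libraries differ more. In NC + TGF-β1 it was 35.0 and 62.7 for pairs with library 2 and 12.1 for the other pair. In siPdcd5 it was 34.6 and 26.8 for pairs with library 1 and 10.2 for the other pair. Without NC + TGF-β1 library 2, 1434 genes were higher and 1124 lower after TGF-β1 in NC cells. To look for pairing, the mean of each group was subtracted from log2 CPM. What remained in same-numbered libraries of the groups compared correlated at r of -0.324 to 0.166. No comparison had every same-numbered r above 0.1, the limit set for pairing. For TGF-β1 in NC cells these r were 0.166, 0.166 and 0.007, so pairing is not excluded. The block changed no call of a member other than that of Id1 after knockdown.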
